A study of Mus musculus with 2 samples.

Results

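The TEAD transcription factors and the central genes of the Hippo pathway were described in mouse embryonic stem cells from 1 table of poly(A) RNA counts. The 10 genes were taken by symbol: the TEAD factors Tead1, Tead2, Tead3 and Tead4, their coactivators Yap1 and Wwtr1, the LATS kinases Lats1 and Lats2, and the MST kinases Stk3 and Stk4. The deposited table listed 15127 protein-coding genes, and 9 of the 10 were among them, beside 68.8% of all annotated protein-coding genes. The cells were of the female pSM44 line, made from an F1 cross between 129 and castaneus mice, in which doxycycline turns on the endogenous Xist gene of the 129 allele. Both libraries belonged to the same group, grown in serum-free 2i/LIF medium and given doxycycline at 2 μg/mL for 24 h. No untreated cells were analysed here, and the cells are a single line, so no value below is a response to doxycycline or to Xist.

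The Hippo pathway is a kinase cascade that limits growth in response to cell contact, polarity and tension. MST kinases, with the scaffold protein Salvador, phosphorylate LATS kinases and their MOB partners, and LATS kinases phosphorylate the coactivators YAP (Yap1) and TAZ (Wwtr1). Phosphorylated YAP and TAZ are held in the cytoplasm by 14-3-3 proteins or degraded, and otherwise they enter the nucleus and bind TEAD factors, which contact DNA but activate little alone. In the early mouse embryo, TEAD4 with YAP turns on trophectoderm genes in outer cells, while LATS activity keeps YAP out of the nucleus in the inner cells from which embryonic stem cells derive.

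The table summed to 10017978 counts in a single column, and without replicates no spread between libraries could be given. CPM is the count scaled by that total, and 1 count equalled 0.0998 CPM. Levels of different genes were compared as counts per kilobase of exon, with all annotated exons of a gene merged. The 95% intervals are exact Poisson or binomial ones and cover counting error only. The 10 naive pluripotency markers ran from 183 CPM for Tbx3 to 4716 for Dppa5a. Primitive endoderm markers reached at most 12.7 CPM (Gata4). Of 8 fibroblast markers, 5 were above CPM 1, beside 55.2% of annotated protein-coding genes at CPM 1 or more. These were Fn1 at 943 CPM, Thy1 at 26.7, Col1a2 at 6.59, Pdgfrb at 6.09 and Col1a1 at 5.79. The others, Col3a1, Dcn and Lum, were not listed.

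Per kilobase of exon Tead2 was the most abundant TEAD transcript and also the highest of the members, Tead4 and Tead1 were intermediate, and Tead3 was low. Tead2, the TEAD gene known for high expression in the early embryo, had 1961 counts, or 196 CPM (95% Poisson interval 187 to 205). Per kilobase of exon its level was 409.6 counts (392 to 428), at percentile 90.8 of the listed genes. Tead4, the TEAD gene needed for trophectoderm in the embryo, had 650 counts, 64.9 CPM (60.0 to 70.1) and 181 counts per kilobase (167 to 195). These were the highest and the next highest TEAD levels per kilobase. Tead1, a factor with broad roles that include the heart, had 1129 counts, 113 CPM (106 to 119) and 83.2 counts per kilobase (78.4 to 88.2). Tead3 had 37 counts, 3.69 CPM (2.60 to 5.09) and 5.51 counts per kilobase (3.88 to 7.60), at percentile 24.8. Tead3 was the single listed member below the median gene of the table on the CPM scale, which was 18.3 CPM.

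On the GRCm38 assembly, Tead2 lies on chromosome 7 at 45215753 to 45233644, and Tead1 on the same chromosome at 112679318 to 112906807, both on the plus strand. Tead3 lies on chromosome 17 at 28331671 to 28350817 and Tead4 on chromosome 6 at 128224288 to 128300823, both on the minus strand. No more than 3.01% of the exonic bases of any of the 4 genes (Tead1) lay under another annotated gene.

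Tead2 stood above the other TEAD genes, and Tead3 below them, by more than counting error. The level of Tead2 per kilobase of exon was 2.27 times that of Tead4 (95% binomial interval 2.07 to 2.48), 4.92 times that of Tead1 (4.57 to 5.30) and 74.3 times that of Tead3 (53.7 to 106). Of the summed TEAD level per kilobase, Tead2 made up 60.3%, Tead4 26.6%, Tead1 12.3% and Tead3 0.812%. As shares of the 3777 TEAD counts without regard to length, the values were 51.9% for Tead2 (Clopper-Pearson interval 50.3 to 53.5), 29.9% for Tead1, 17.2% for Tead4 and 0.980% for Tead3. Tead2 was first and Tead3 last of the family under all 6 length settings tried, whereas the order of Tead1 and Tead4 depended on the length used. Tead4 stood 2.17 times above Tead1 per kilobase of merged exon (1.97 to 2.39). Per kilobase of coding sequence it stood at 0.588 times Tead1 (0.533 to 0.648). The merged exons of Tead1 cover 13570 bases against 3598 for Tead4, while their longest coding sequences are alike at 1308 and 1281 bases.

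**Figure D1:**
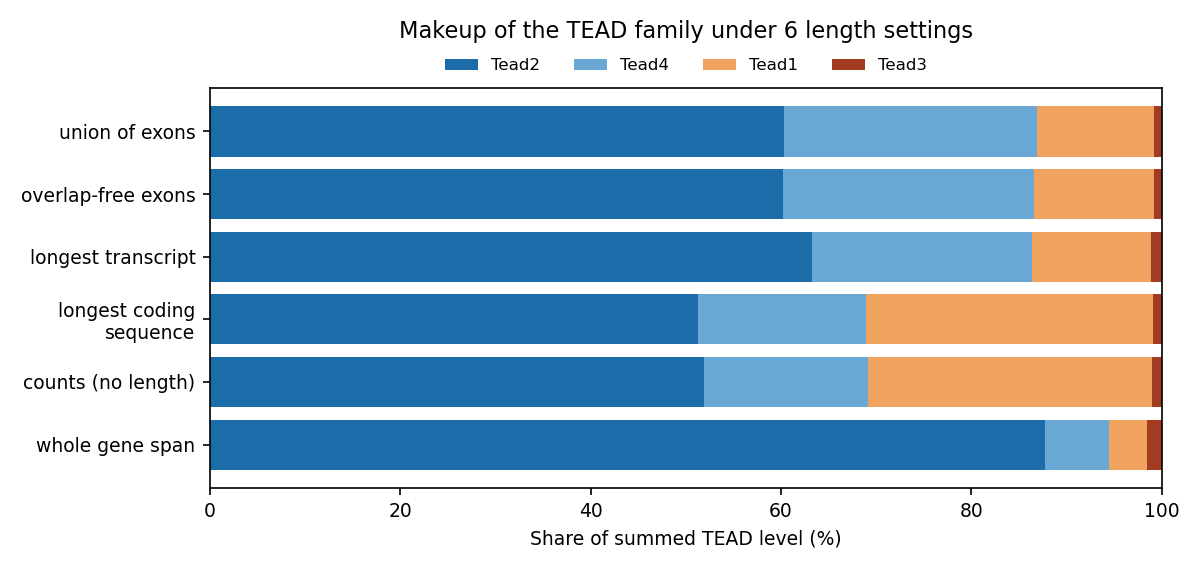
Makeup of the TEAD family. Each bar divides the summed level of the 4 TEAD genes (horizontal axis, percent) by gene, and each row uses another gene length, with no replicates and no error bars. Tead2 takes 51.3% to 87.7% in every row and Tead3 at most 1.55%, while Tead1 exceeds Tead4 in the coding sequence and count rows only.

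Both coactivators were expressed, at levels that could not be ordered. Yap1 had 1180 counts, or 118 CPM (111 to 125), and Wwtr1 had 1098 counts, or 109.6 CPM (103 to 116). Per kilobase of merged exon Yap1 was at 127 counts (120.3 to 135) and Wwtr1 at 229.8 (216 to 244). On that scale the ratio of Yap1 to Wwtr1 was 0.555 (0.511 to 0.603). The ratio was 0.956 per kilobase of longest transcript (0.880 to 1.04), 0.995 per kilobase of coding sequence (0.916 to 1.08) and 1.07 for counts alone (0.989 to 1.17). Annotated exons of Yap1 merge to 9257 bases, but its longest transcript has 5282, whereas Wwtr1 has 4779 and 4697. Summed per kilobase of exon, TEAD transcripts were 1.90 times coactivator transcripts, at 679 against 357 counts. That ratio lay between 1.66 and 2.00 in the other settings apart from gene span, where it was 4.92. Yap1 lies on chromosome 9 at 7931999 to 8004596 and Wwtr1 on chromosome 3 at 57455649 to 57575910, both on the minus strand, with at most 1.25% of exonic bases under other genes.

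The listed kinases upstream of YAP and TAZ lay below Tead2, Tead4 and both coactivators per kilobase of exon. Stk4, which encodes MST1, had 648 counts, 64.7 CPM (59.8 to 69.9) and 111 counts per kilobase of exon (102 to 119). Stk3, which encodes MST2, had 426 counts, 42.5 CPM (38.6 to 46.8) and 69.7 counts per kilobase (63.2 to 76.6). Lats1, the kinase that acts directly on YAP and TAZ, had 243 counts, 24.3 CPM (21.3 to 27.5) and 33.3 counts per kilobase (29.2 to 37.8). Lats1 was thus the lowest of the listed kinases per kilobase, and its interval ended just under the median listed gene at 37.9 counts per kilobase. Per kilobase of gene span Stk3 was lower, at 0.204 times Lats1. Per kilobase of exon, Stk4 stood 3.32 times above Lats1 (2.86 to 3.86) and Stk3 2.09 times above it (1.78 to 2.46). The ratio of Stk3 to Stk4 was 0.630 per kilobase of exon (0.556 to 0.713), but 1.04 per kilobase of longest transcript (0.922 to 1.18). Stk4 lies on chromosome 2 at 164070322 to 164155524, Stk3 on chromosome 15 at 34875496 to 35178921 and Lats1 on chromosome 10 at 7681214 to 7716460.

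**Figure D2:**
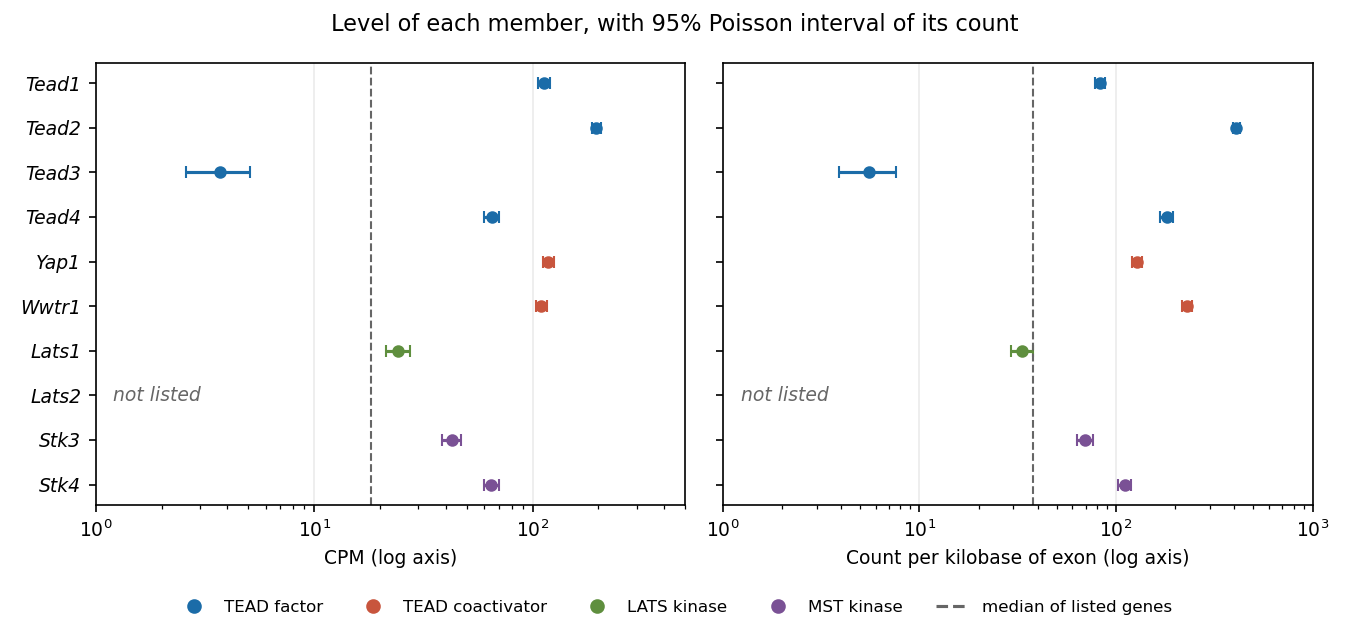
Level of each of the 10 genes in CPM (left, log axis) and in counts per kilobase of merged exon (right, log axis). Points are the single deposited value, bars are 95% Poisson intervals of the count, colours give the role, and dashed lines are the medians of all listed genes (18.3 CPM and 37.9 counts per kilobase). Tead3 lies far to the left of the other TEAD genes, Lats1 is next lowest, and Lats2 has no value.

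Lats2 was not listed, and its exons lie almost wholly within the span, introns included, of another gene on the same strand. Lats2 occupies chromosome 14 at 57689662 to 57758388 on the minus strand. GENCODE M21 annotates a protein-coding gene, Gm49361, at 57642077 to 57746103 on that strand. Of its 9 exons, 6 lie in exons of Lats2 and 3 in the span of Xpo4, the next gene downstream. The span of Gm49361 covers 97.0% of the 6971 exonic bases of Lats2, and all but 20 of the 5191 bases of its longest transcript. Exons of Gm49361 alone cover 42.4% of the exonic bases of Lats2. Gm49361 was not listed either, whereas Xpo4 had 1107 counts (111 CPM). Over the annotation, 740 protein-coding genes had at least 90% of their exonic bases under other protein-coding genes of the same strand, and 14.2% of them were listed (Clopper-Pearson interval 11.8 to 16.9). Among 16768 genes with at most 10% of exonic bases under any gene, 71.6% were listed (70.9 to 72.3). Whether reads of Lats2 were set aside because of the overlap was not tested, and its missing value says nothing about its level.

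**Figure D3:**
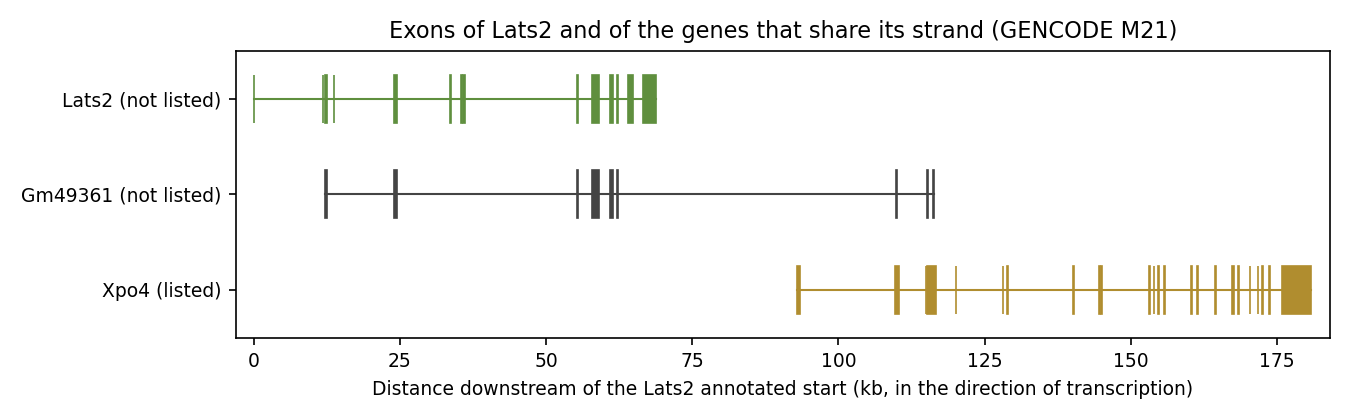
Map of the genes that share the strand of Lats2. Boxes are merged exons, drawn with an outline of fixed width so that short ones stay visible, and lines are gene spans. The horizontal axis gives the distance in kb from the start of Lats2 annotated in GENCODE M21, in the direction of transcription. The exons of Gm49361 follow those of Lats2 for 6 exons and then 3 in the span of Xpo4.

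Of the 10 genes, 9 were at CPM 1 or more, the level reached with 11 counts. Over the annotation, 55.2% of protein-coding genes were at CPM 1 or more, and over the listed genes 80.1%. At CPM 10 or more there were 8 members, against 58.9% of listed genes. The 9 listed members had a median of 64.9 CPM, or 6.04 on the log2(CPM + 1) scale, beside 4.27 for all listed genes. In the order of levels per kilobase of exon, Tead2 was followed by Wwtr1, Tead4, Yap1, Stk4, Tead1, Stk3, Lats1 and Tead3. Each of the 8 neighbouring pairs in this order differed by more than counting error. The smallest step, from Yap1 to Stk4, was 1.15 times (1.05 to 1.27). Per kilobase of longest transcript, 4 of the 8 neighbouring pairs in the order found there had an interval that held 1. The number of such pairs was 3 for counts alone and 2 per kilobase of coding sequence. It was 3 per kilobase of gene span, where Stk3 was lowest. With a single column, no pattern across conditions exists by which other genes could be matched to these.

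The letters that TEAD proteins recognise, CATTCC on one strand and GGAATG on the other, were looked for in the annotated promoters of the members and of known YAP and TEAD target genes. The windows are RefSeq ones on GRCm38.p6, running from 250 bases before to 50 bases after each annotated start. The 2 spellings cannot overlap each other and were searched on both strands. Among 32851 windows of this length, 14.7% held at least 1 match. This is a share of windows, so counts of genes with several windows do not compare with it directly. Windows were found for 7 of the 10 members, and 4 of the 7 (Tead3, Yap1, Wwtr1 and Lats2) had a match in at least 1 window, or 6 of 11 member windows, some of which overlap. Of 15 target genes with a window, 7 had a match, Lats2 among them, or 7 of 17 target windows. Tead3, the lowest listed member, had 1 match in its first window, 3 in the next, which overlaps it, and none in its last. The first window of Lats2 held a match and its other window none. Both windows of Wwtr1 hold the same match. Shown are the first windows of the coactivators and of Lats2, a member that is also on the target list. The other target genes shown are Ccn1 and Amotl2, which were expressed, and Ankrd1, which was not listed. All of the windows shown hold a match. Target genes whose windows held none, among them Igfbp3 and Myof, are not shown, and Ccn2 had no window. Capitals mark the matches, each sequence reads 5′ to 3′ along the gene, and a match is no evidence of binding.
Yap1, chr9:8004547-8004846, minus strand: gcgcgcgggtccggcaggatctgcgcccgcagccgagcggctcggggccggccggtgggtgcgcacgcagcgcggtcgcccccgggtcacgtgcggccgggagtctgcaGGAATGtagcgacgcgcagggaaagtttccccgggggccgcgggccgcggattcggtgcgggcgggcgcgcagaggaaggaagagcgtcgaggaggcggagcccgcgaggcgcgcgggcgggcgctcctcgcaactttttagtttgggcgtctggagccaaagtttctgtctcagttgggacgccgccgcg
Wwtr1, chr3:57575861-57576160, minus strand: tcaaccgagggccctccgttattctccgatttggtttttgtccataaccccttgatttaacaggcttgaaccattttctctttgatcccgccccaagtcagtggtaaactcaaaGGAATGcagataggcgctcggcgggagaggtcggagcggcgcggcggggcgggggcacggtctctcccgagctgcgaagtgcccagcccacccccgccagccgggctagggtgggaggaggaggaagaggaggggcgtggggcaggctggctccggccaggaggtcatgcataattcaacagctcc
Lats2, chr14:57746074-57746373, minus strand: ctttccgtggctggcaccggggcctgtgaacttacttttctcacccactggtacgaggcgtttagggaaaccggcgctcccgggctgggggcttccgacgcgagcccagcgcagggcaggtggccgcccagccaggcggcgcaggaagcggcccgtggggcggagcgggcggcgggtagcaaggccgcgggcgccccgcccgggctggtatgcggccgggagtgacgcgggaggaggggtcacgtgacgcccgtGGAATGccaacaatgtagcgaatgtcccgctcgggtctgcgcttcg
Ccn1, chr3:145649936-145650235, minus strand: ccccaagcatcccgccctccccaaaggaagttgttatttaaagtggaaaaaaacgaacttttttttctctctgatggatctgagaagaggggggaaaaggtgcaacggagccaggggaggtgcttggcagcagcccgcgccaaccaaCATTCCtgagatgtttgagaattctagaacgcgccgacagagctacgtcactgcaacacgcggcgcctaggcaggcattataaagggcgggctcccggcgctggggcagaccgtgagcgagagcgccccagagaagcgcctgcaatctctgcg
Amotl2, chr9:102717554-102717853, plus strand: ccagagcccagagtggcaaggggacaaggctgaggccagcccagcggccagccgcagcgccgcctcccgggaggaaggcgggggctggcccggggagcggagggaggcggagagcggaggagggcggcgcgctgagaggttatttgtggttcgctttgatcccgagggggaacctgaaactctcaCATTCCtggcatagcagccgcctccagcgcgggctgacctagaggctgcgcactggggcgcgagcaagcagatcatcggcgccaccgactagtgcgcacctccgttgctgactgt
Ankrd1, chr19:36119795-36120094, minus strand: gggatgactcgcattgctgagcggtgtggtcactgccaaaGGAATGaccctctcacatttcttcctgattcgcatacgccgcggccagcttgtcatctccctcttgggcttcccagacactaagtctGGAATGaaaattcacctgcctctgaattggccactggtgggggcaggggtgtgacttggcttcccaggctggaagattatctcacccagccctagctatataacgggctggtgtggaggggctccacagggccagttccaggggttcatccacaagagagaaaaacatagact
The match began 141 bases before the annotated start in Yap1, 136 in Wwtr1, 103 in Ccn1 and 65 in Amotl2. In Ankrd1, the promoter with 2 matches, they began 210 and 123 bases before the start, and in Lats2 the match began 4 bases after it. The RefSeq start of this Lats2 window is not the GENCODE start at 57758388 from which the map was drawn, but lies downstream. The same window also holds the GENCODE start of Gm49361 at 57746103.

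Target genes of YAP and TEAD spanned a wide range and were centred near the typical listed gene. Of 22 genes of a commonly used target list, 3 had no row in the table. In all, 17 reached CPM 1, beside 55.2% of annotated and 80.1% of listed genes. The median of the list was 31.8 counts per kilobase of exon over 19 listed genes, beside 37.9 for all listed genes. The highest was Igfbp3, which encodes a carrier of insulin-like growth factors, with 759 counts (75.8 CPM) and 242 counts per kilobase. Amotl2, which encodes an angiomotin that binds YAP, was at 136 counts per kilobase, and Ccn1, which encodes a secreted matrix protein, at 115 with 232 counts (23.2 CPM). These 3 led the list per kilobase. Ccn2, the best known readout of YAP activity, had 216 counts (21.6 CPM; 18.8 to 24.6), with 44.9% of its exonic bases under a non-coding gene of the opposite strand. Myof, which encodes a membrane repair protein, had 1231 counts, or 123 CPM. At the other end Axl, Foxf2 and Nt5e had 11 counts each, Tgfb2 had 4 and Rbms3 had 2. Ankrd1 and Ccdc80 were not listed, and neither had exonic bases under another gene, unlike Lats2.

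Trophectoderm genes were mostly low, apart from Tfap2c and from Tead4, which is itself on the list. Cdx2, the caudal homeobox gene that TEAD4 and YAP activate in the outer cells of the embryo, had 50 counts, or 4.99 CPM (3.70 to 6.58). Gata3 had 1 count and Elf5 had 3, while Eomes had 52. Keratin genes of this lineage were at 77 counts for Krt8, 73 for Krt18 and 53 for Krt7. Tfap2c, which is also active in pluripotent and germ cells, stood apart with 1582 counts, or 158 CPM (150.2 to 166). Per kilobase of exon Tfap2c was at 430.01 counts, Tead4 at 181 and Cdx2 at 22.1. Thus 2 of the 9 genes in the list, Tfap2c and Tead4, were at CPM 10 or more, beside 58.9% of listed genes.

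Vestigial-like cofactors, which compete with YAP and TAZ for TEAD proteins, were low. Only Vgll4 of the 4 genes was at CPM 1 or more, beside 80.1% of listed and 55.2% of annotated genes. Vgll4, an antagonist of YAP, had 128 counts, 12.8 CPM (10.7 to 15.2) and 23.7 counts per kilobase of exon. Vgll1 had 6 counts, Vgll3 had 2 and Vgll2 was not listed, with no annotated overlap for any of them.

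Kinases and adaptors that act with MST and LATS were all detected. All 19 genes reached CPM 1, beside 80.1% of listed and 55.2% of annotated genes, and their median was 74.4 counts per kilobase. Mob1a, which encodes a LATS activator, was highest at 288 counts per kilobase with 1381 counts, against 37.8 for its paralogue Mob1b with 568. Map4k4, a kinase gene that acts beside MST, was at 192 counts per kilobase, and Nf2, which encodes the scaffold Merlin, at 189. Sav1, which encodes the MST partner Salvador, was at 45.8 counts per kilobase with 241 counts, and 28.1% of its exonic bases lay under other genes. The KIBRA genes Wwc1 and Wwc2 were at 132 and 121 counts per kilobase. The lowest were Tnik at 3.58 and Map4k5 at 6.50 counts per kilobase, the latter with 82.7% of its exonic bases under genes of the opposite strand. Taok1, at 11.7 counts per kilobase, had 73.8% of its exonic bases under such genes, and the part of this overlap in its count was not tested. As a reference, 906 annotated genes had at least 90% of their exonic bases under opposite-strand genes and at most 10% under same-strand ones. Of these, 10.9% were listed (Clopper-Pearson interval 8.97 to 13.1), beside 71.6% of genes with at most 10% under any gene. Map4k5 and Taok1 do not reach that overlap of 90%.

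The lists of a phosphatase complex, of 14-3-3 proteins and of YAP and TAZ degradation had higher medians than the kinases and adaptors. All 16 genes of the STRIPAK complex, a phosphatase assembly that removes phosphate from MST kinases, reached CPM 1, beside 80.1% of listed genes, and their median was 111 counts per kilobase. Ppp2r1a, its scaffold subunit, led with 1398 counts per kilobase, then the catalytic subunit genes Ppp2cb with 840.03 and Ppp2ca with 354, and Strip2 was lowest with 6.24. The exons of Ppp2ca lay wholly under other annotated genes. The 7 genes for 14-3-3 proteins, which hold phosphorylated YAP, had a median of 1163 counts per kilobase, led by Ywhae with 4009, Ywhaz with 1553 and Ywhag with 1468, and Sfn was lowest with 153. Whether near-identical copies elsewhere in the genome share reads with these genes was not tested, so single values are uncertain. The 6 genes for the kinases and ubiquitin ligase that degrade YAP and TAZ had a median of 275 counts per kilobase. Skp1a led with 2581, although its exons lay wholly under other genes, then Csnk1e with 297 and Cul1 with 289, and Btrc, which recognises phosphorylated YAP, was lowest with 86.7.

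Inputs from the cell surface were uneven. Junction genes whose products bind YAP or LATS had a median of 151 counts per kilobase, with 9 of 10 at CPM 1 or more, beside 80.1% of listed genes. Ctnna1, which encodes alpha-catenin, led with 659 counts per kilobase, and Ajuba, which encodes a LATS inhibitor, followed with 355. Amot, the founding angiomotin gene, was lowest with 10 counts, or 0.998 CPM (0.479 to 1.84). Its paralogue Amotl1, singled out here because of its value, had 585 counts. Of 18 polarity and protocadherin genes, 16 were listed. Of these 16, 13 were at CPM 1 or more, a share near the 80.1% of all listed genes. The same 13 of 18 stand beside 55.2% of annotated genes. Llgl2 led with 800.2 counts per kilobase, then Prkci with 412 and Llgl1 with 336, all 3 genes of apical-basal polarity. The large cadherin gene Dchs2 had 1 count, and Fat4, which encodes a receptor for Dachsous cadherins, and Crb1 were not listed. The 6 Rassf genes, whose products bind MST kinases, all reached CPM 1, beside 80.1% of listed genes, with a low median of 11.8 counts per kilobase, from 61.7 for Rassf3, 20.9 for Rassf2 and 12.1 for Rassf4 down to 3.05 for Rassf6.

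Over the 9 pathway lists together, 105 genes other than the 10 members were counted. Of these, 100 were listed and 92 were at CPM 1 or more, or 87.6% of the genes, against 55.2% of annotated protein-coding genes. Among the listed ones alone the share was 92%, beside 80.1% of all listed genes. Of the listed ones, 79 were at CPM 10 or more, beside 58.9% of all listed genes. Their median was 51.3 CPM.

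**Figure D4:**
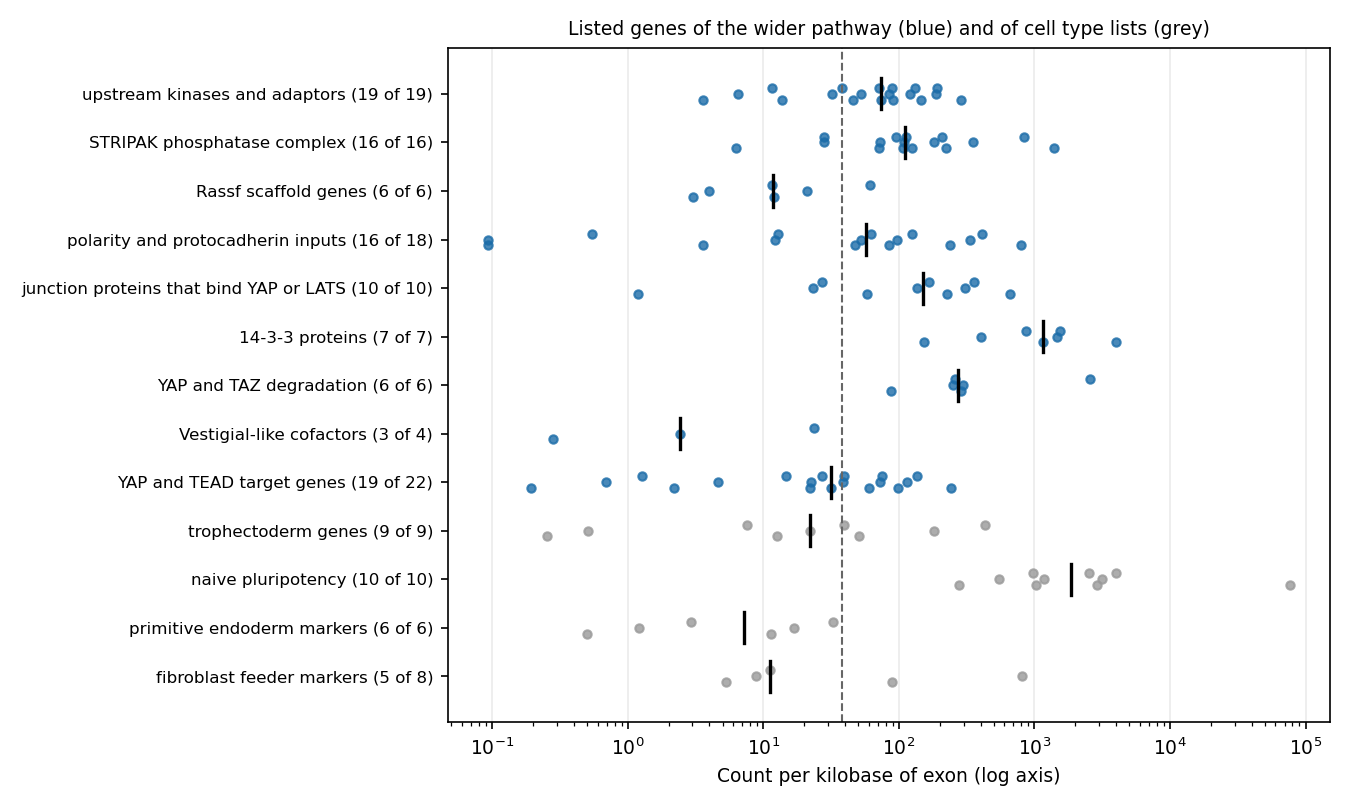
Levels of the listed genes of each list in counts per kilobase of exon (log axis). Points are genes (small vertical offsets only separate them), black ticks are list medians, the dashed line is the median of all listed genes (37.9), and labels give listed genes of all genes in the list. The 14-3-3 list lies highest of the pathway lists, while the Rassf, vestigial-like and target gene medians lie below the dashed line.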

How the data were processed

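Poly(A) RNA was sequenced from 2 libraries of 1 group. Per the submitters' processing notes, the build was GRCm38.p6 and the tools were Subread 1.6.4 with its featureCounts, HISAT2, Trimmomatic 0.38 and SAMtools. Not given in the sources used here are the strand setting, the feature counted and the annotation release. Raw counts by gene symbol were deposited by the authors in 1 column that names the line and treatment but no library, so it was read as the group's value. Of 15127 symbols, 14896 matched GENCODE M21 and 182 more matched through RefSeq synonyms. Ctgf and Cyr61 were read as Ccn2 and Ccn1. Exons of all transcripts of a gene were merged for its length. CPM used all 10017978 counts, with a pseudocount of 1 on the log2 scale. Intervals of shares per kilobase hold the other genes fixed. The interval functions were tested on simulated counts. The members, lists and rules were chosen with earlier results of these data known. Every member could be named, and so could any gene of the target, cofactor, trophectoderm and upstream kinase lists. Of other lists, the 3 highest per kilobase, the lowest listed and all unlisted genes were named, except 1 gene that is not reported here. Alternatives were other minimums, a pseudocount of 0.1, other gene lengths and a total without ribosomal protein genes. Gene span was added after the data were seen. Calculations ran in Python 3.11.15 with pandas 2.3.3, scipy 1.17.1 and numpy 2.4.6, and figures were drawn with matplotlib 3.10.9.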

Additional observations from a re-analysis of the deposited data

How the results depend on the processing

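Counts of detected genes depended little on the minimum: 8 or 9 members and 85 to 95 pathway genes passed the others tried. With no minimum, the counts are simply those of listed genes, 9 and 100. The share of all genes at those other minimums is not given here. The median of members minus that of all listed genes, 1.77 on the log2 scale, was 1.05 among genes at CPM 1 or more and 1.47 per kilobase of exon. Leaving out 93 ribosomal protein symbols raised every member's CPM by the same factor.

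Gene length moved the comparisons between paralogues, for which no other choice was varied. Without length, Tead1 had 29.9% of the TEAD level, Tead2 51.9% and Tead4 17.2%, and the ratio of Yap1 to Wwtr1 was 1.07. With the longest transcript, Tead2 had 63.3%, Tead3 1.18% and Tead4 23.1%, and the ratios were 0.956 for Yap1 to Wwtr1 and 1.04 for Stk3 to Stk4. With the longest coding sequence, Tead1 had 30.1%, Tead2 51.3% and Tead4 17.7%, and Yap1 to Wwtr1 was 0.995. With the whole gene span, Tead1 had 3.97%, Tead2 87.7%, Tead3 1.55% and Tead4 6.79%, Yap1 to Wwtr1 was 1.78 and Stk3 to Stk4 0.185, and Stk3, with the longest span, came below Tead3. The settings differ only in the lengths that divide the same counts.

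No paired analysis was possible because the table has 1 column for 1 group, and for the same reason no library was left out. Depth limits genes of a few counts: at 37 counts the interval of Tead3 ran from 2.60 to 5.09 CPM. The ratio of Lats1 to Lats2 was not computed because Lats2 was not listed.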

Other observations

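The rows of the deposited table followed the count per base of whole gene span (Spearman rho across genes 0.9999, genes not being independent). For the 9 listed members, the span implied by the density of the 5 neighbouring rows on each side differed from the M21 span by at most 0.0829%. The table thus appears ordered with gene spans close to those of M21, which hold introns, and whether intronic reads entered the counts was not tested.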
